A study of Mus musculus with 24 samples.

Results

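The C-type lectin receptors followed here were the products of 10 genes: Clec7a, Clec4a2, Clec4d, Clec4e, Clec4n, Clec10a, Clec12a, Mgl2, Mrc1 and Cd209a. They were taken by their symbols from the authors' own gene table. They are 10 of its 55487 genes, and all 10 were among the 14535 genes with enough counts to be tested. Poly(A) RNA had been sequenced from bulk cultures of mouse marrow kept in GM-CSF, a growth factor that drives marrow progenitors towards dendritic cells and macrophages. The resulting bone-marrow-derived dendritic cells were over 90% CD11c+ by flow cytometry, per the labels. Control cultures (WT) carried floxed ARPC4 alleles (ARPC4 Flox/Flox) without the Cre transgene (CD11c-Cre -/-) and came from the mice numbered 63, 65 and 66. Knockout cultures (KO) carried the same floxed alleles with the transgene (CD11c-Cre +/-) and came from the mice numbered 64, 67 and 68. Arpc4 encodes a subunit of the Arp2/3 complex, which builds branched actin networks. The CD11c promoter drives the Cre, so deletion follows CD11c expression during the culture, and cells that have not yet turned on CD11c keep the gene. Cells in suspension were collected on days 7, 8, 9 and 10, giving 8 groups with 3 mice each and 24 libraries. Marrow donors were 8 to 10 weeks old and of both sexes, every culture received GM-CSF at 50 ng/mL, and the cells were replated on days 4 and 7. Unless stated otherwise, the p-values below rest on the spread between libraries within groups. They take the 24 libraries as independent, although the labels give each mouse a library on every day. The fit also shares the spread of a gene across both genotypes. Leaving out a KO number can therefore change a WT call, and the reverse.

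C-type lectin receptors are membrane proteins of myeloid cells that bind sugars and other ligands on microbes and dying cells. Some signal through activating tyrosine motifs, their own or those of the adaptor Fcer1g, to the kinase Syk and the adaptor Card9, which switch on cytokine genes. Others carry inhibitory motifs that recruit phosphatases, and a further set mainly internalises ligands for degradation and antigen presentation.

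Several features of the libraries bear on what follows. Total counts were 19952047 to 31049798 per library, and the 10 genes together took 0.237% to 0.534% of them. Arpc4 itself lay at 155 to 231 CPM (counts scaled to a common library size with the TMM factors of edgeR) in KO and 188 to 270 in WT, and the log2 difference of KO from WT was between -0.18 and -0.28 on the 4 days, none called (edgeR quasi-likelihood, Benjamini-Hochberg adjusted p 0.18 to 0.69). Summed TPM (transcript abundance scaled per gene length) was 3965 to 17070 for 14 dendritic markers, 4568 to 8212 for 12 macrophage markers and 7292 to 25640 for 12 neutrophil markers. Itgax, which encodes CD11c, lay at 474 to 1120 TPM. Xcr1 and Flt3, which mark conventional dendritic cells, stayed at or under 0.61 and 3.76 TPM. Other genes of the dendritic list reached higher values: Zbtb46 lay at 0.68 to 10.2 TPM, Batf3 at 8.26 to 18.2 and Irf8 at 46.9 to 102. The lymphoid and plasmacytoid lists summed to at most 12.84 and 12.2 TPM. In bulk RNA, fewer cells of a type and less RNA per cell cannot be told apart.

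The mouse numbers of the KO libraries went against a marker in the data. The Y-linked gene Ddx3y was at 56.5 to 83.9 CPM in 1 library of each group and at most 0.136 CPM in the others. In WT that library was number 63 on all 4 days, but in KO it was number 64 on days 7 and 9, number 68 on day 8 and number 67 on day 10. Comparisons of groups do not use the numbers. Values without the 4 KO libraries concerned (numbers 64 and 68 on day 8, numbers 64 and 67 on day 10) are given where they change a call. They leave 1 KO library on day 8 (number 67) and 1 on day 10 (number 68), which are assumed to vary like the libraries of the other groups. Leaving out a number below removes its libraries on all days, which in KO need not be those of 1 mouse.

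Per length, Clec4n was the most abundant of the 10 genes and Cd209a the least abundant in all 8 groups. Mean TPM of Clec4n was 1430 on day 7 and 4381 on day 8 in WT. Clec7a stood next in every group, at 911.6 TPM on day 7 in WT. Cd209a rose from a mean of 0.553 TPM on day 7 in WT to 12.21 ± 4.37 (SD, n = 3) on day 10. Mgl2 changed its place most: it was the fifth on day 7 in WT at 99.8 TPM, the fourth on day 8 at 592.6 TPM and the third on day 10 at 363.2 TPM. Of 72 pairs of neighbours in the order, 58 had all 3 libraries of one above all 3 of the other. The 14 unclear pairs included Clec10a and Clec4e in 4 of the 8 groups, Mgl2 and Clec4d in WT on day 10, and Clec7a and Mgl2 in KO on days 9 and 10.

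The largest median step of the 10 genes, and most of their called steps, came in the day after the second replating. Clec4d, Clec4e and Clec7a moved more in a later step, as did Cd209a in KO. From day 7 to day 8 in WT, 6 of the 10 genes rose and none fell, against 43.4% of all genes tested that were called, 21.5% higher and 22% lower. In KO, 6 rose and Clec12a fell, against 42% of all genes, 21.1% higher and 20.9% lower. The median log2 change of the 10 genes was 0.95 in WT and 0.73 in KO, while that of all genes was -0.0038 and 0.0018. A gene is called here when its p from edgeR's quasi-likelihood fit of all 24 libraries, adjusted by Benjamini-Hochberg across the 14535 genes, is under 0.05.

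**Figure D1:**
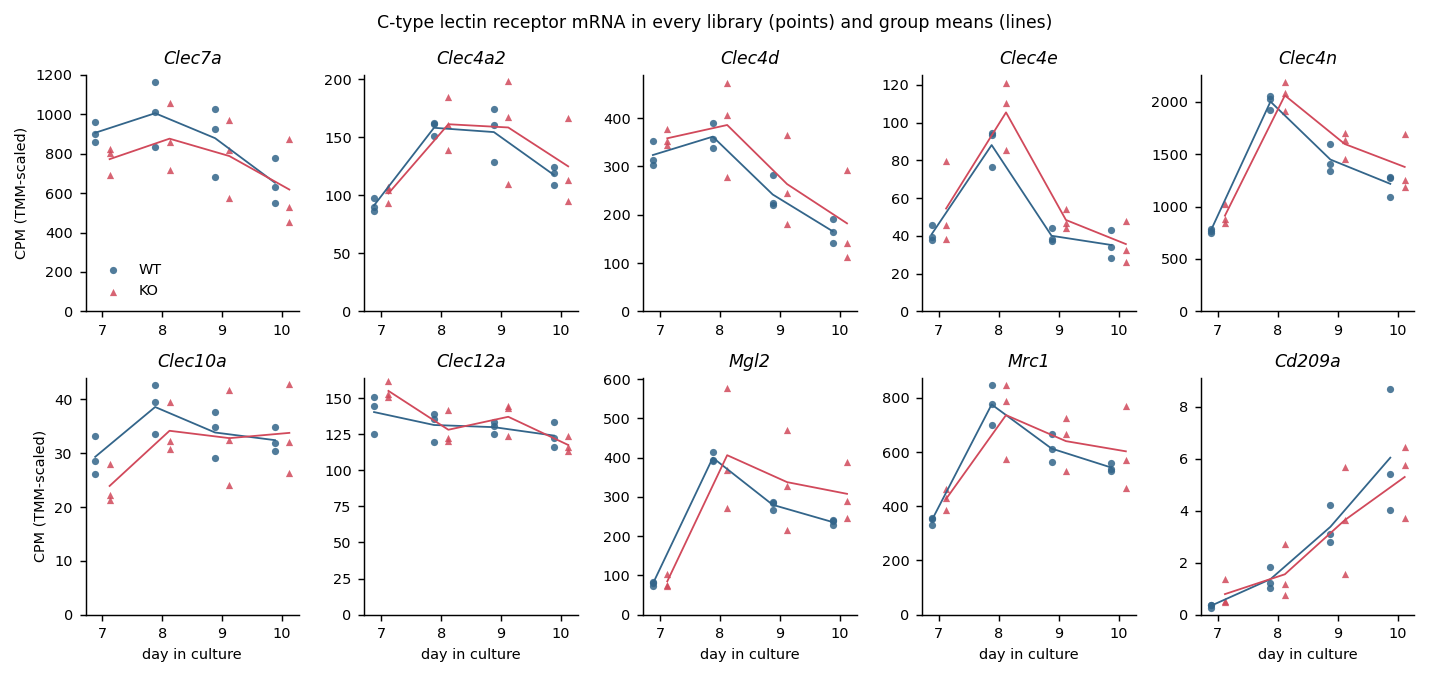
TMM-scaled CPM (y axis, linear from 0) of each gene against day in culture (x axis), with 1 point per library, circles for WT and triangles for KO, and lines through the group means. Mgl2, Clec4n, Mrc1 and Clec4e climb from day 7 to day 8, Cd209a climbs to day 10, and KO points spread more widely than WT points for Mgl2.

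Clec4n encodes Dectin-2, which binds mannans and signals through Fcer1g. In WT its CPM was 744.4, 781.6 and 769.5 on day 7 and 1919, 2058 and 2029 on day 8. In KO it was 838.5, 1022 and 879.7 on day 7 and 2188, 1910 and 2084 on day 8. Every day 8 library lay above every day 7 library in both genotypes. The log2 change was 1.39 (SE 0.12, edgeR adjusted p = 2.3e-08) in WT and 1.17 (SE 0.12, adjusted p = 1.8e-07) in KO. By day 10 Clec4n had come part of the way back, to 1091, 1283 and 1277 CPM in WT and 1190, 1688 and 1257 in KO. It was then still above day 7, by 0.67 in WT (adjusted p = 0.00016) and 0.59 in KO (adjusted p = 0.00055) on the log2 scale.

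Clec4e encodes Mincle, the receptor for mycobacterial cord factor, and showed a rise of a single day. WT libraries held 39.38, 37.59 and 45.87 CPM on day 7, 76.73, 94.45 and 93.28 on day 8, and 37.36, 38.48 and 44.34 on day 9. The KO libraries held 38.44, 79.47 and 45.56 CPM on day 7, 120.8, 110.2 and 85.35 on day 8, and 47.02, 54.03 and 44.25 on day 9. All 6 day 8 values exceeded all 6 day 9 values, and the day 7 and day 9 ranges overlapped in each genotype. The rise was 1.11 on the log2 scale in WT (SE 0.23, edgeR adjusted p = 0.00058) and 0.95 in KO (SE 0.23, adjusted p = 0.002). The fall from day 8 to day 9 was -1.14 in WT (adjusted p = 0.0091) and -1.12 in KO (adjusted p = 0.015). That fall kept its size but not its call when number 63, 65 or 66 was left out in WT (-1.05 to -1.18, adjusted p 0.1 to 0.16). The KO fall was -1.19 to -0.999 over the 19 alternatives and lost its call with only the groups compared. In KO the adjusted p was 0.051 without number 66, 0.099 without number 68 and 0.066 without the 4 KO libraries of doubtful number, which leaves 1 on day 8.

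Clec4d encodes MCL, which pairs with Mincle at the cell surface, and took another course. Its WT values were 353.7, 313.4 and 303.9 CPM on day 7, 357, 389.4 and 338.7 on day 8, 219.3, 281.8 and 224.6 on day 9, and 140.9, 191.7 and 165 on day 10. In KO it ran from 376.9, 353 and 345.1 CPM on day 7 to 112, 292.8 and 141.7 on day 10. Day 10 lay wholly below day 7 in both genotypes. The log2 change from day 7 to day 10 was -0.96 in WT (SE 0.27, edgeR adjusted p = 0.0087) and -0.98 in KO (SE 0.27, adjusted p = 0.0081). Left out one at a time, numbers 63 and 66 moved the WT adjusted p to 0.13 and 0.067, and numbers 64 and 68 moved the KO value to 0.084 and 0.081. A fit of only the groups compared also ended the KO call. Without number 67 the KO fall was -1.52. The change from day 7 to day 8 was not called, at 0.16 in WT (95% interval -0.40 to 0.72) and 0.11 in KO (-0.46 to 0.67).

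These 3 genes and Clec4a2 lie within 183.4 kb of chromosome 6, from 123106428 to 123289870 in GENCODE M21 on GRCm38. Clec4n spans 123229843 to 123247021 on the plus strand, Clec4d 123262111 to 123275265 on the plus strand, and Clec4e 123281789 to 123289870 on the minus strand. Clec4d and Clec4e are 6.5 kb apart with no protein-coding gene between them, and they moved differently over the days. The windows around their RefSeq start sites (250 bases before to 50 after, GRCm38.p6) are shown for that reason, with matches to the searched motifs in capitals. Clec4d is chr6:123261857-123262156 on the plus strand and Clec4e is chr6:123289822-123290121 on the minus strand.
Clec4d: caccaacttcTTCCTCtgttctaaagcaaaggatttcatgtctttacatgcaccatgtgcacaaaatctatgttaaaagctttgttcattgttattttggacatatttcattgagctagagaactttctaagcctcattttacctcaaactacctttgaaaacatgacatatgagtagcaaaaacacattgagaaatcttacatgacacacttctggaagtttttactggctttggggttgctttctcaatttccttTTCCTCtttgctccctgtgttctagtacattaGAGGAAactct
Clec4e: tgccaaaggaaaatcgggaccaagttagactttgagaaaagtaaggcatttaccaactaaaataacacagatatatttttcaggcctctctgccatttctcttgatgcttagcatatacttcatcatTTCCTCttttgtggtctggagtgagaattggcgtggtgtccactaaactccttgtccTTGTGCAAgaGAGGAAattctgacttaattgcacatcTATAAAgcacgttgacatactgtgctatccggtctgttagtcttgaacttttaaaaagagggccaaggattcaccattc
Motifs were searched on both strands: the PU.1 core GAGGAA, AP-1 as TGANTCA, C/EBP as TTGCNNAA, STAT as TTCNNNGAA, the STAT6 spacing TTCNNNNGAA and the TATA box TATAAA. Of 32851 RefSeq promoter windows of this length, 28.3% held the PU.1 core, 7.81% AP-1, 10.8% C/EBP, 8.3% STAT, 6.95% the STAT6 spacing and 13.6% the TATA box. The Clec4d window held 3 PU.1 cores, whose first bases were at -240, 8 and 40 from the start site. The Clec4e window held PU.1 cores at -123 and -56, a C/EBP match at -66 and a TATA box at -29. None of these matches overlapped another. They describe the letters only.

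Clec7a encodes Dectin-1, the receptor for fungal beta-glucans, which carries its own activating motif. The gene lies at 129461591 to 129472779 on the minus strand of chromosome 6, and GENCODE M21 lists it as a polymorphic pseudogene. Its WT values were 857.1, 961.5 and 899.8 CPM on day 7, 836.3, 1166 and 1014 on day 8, 683.5, 1029 and 924 on day 9, and 548, 778.2 and 631.9 on day 10. Number 63 was the lowest of the WT libraries on each day. In KO the range was 689.4 to 823.8 CPM on day 7 and 451.9 to 872.3 on day 10, so the days overlapped. In the fit of all libraries no day comparison of Clec7a was called: the log2 change from day 7 to day 10 was -0.47 in WT (SE 0.22, edgeR adjusted p = 0.1) and -0.32 in KO (SE 0.22, adjusted p = 0.28). Without number 67 on all days the fall was called in both genotypes, at -0.47 in WT (adjusted p = 0.022) and -0.74 in KO (adjusted p = 0.0047). A replicate block with the KO numbers exchanged to follow Ddx3y also called the WT fall (-0.49, limma adjusted p = 0.024), as did a fit of only the groups compared (-0.46, edgeR adjusted p = 0.014).

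Clec4a2 encodes the dendritic cell immunoreceptor DCIR1, which carries an inhibitory motif. The gene spans 123106428 to 123143999 on the plus strand, and 2.14% of its windows of 100 bases occur in its paralogue Clec4a4. It lay at 90.12, 86.24 and 97.46 CPM on day 7 and 150.7, 162 and 161.7 on day 8 in WT. The KO values were 93.12, 104.7 and 107 CPM on day 7 and 184.3, 138.6 and 160.7 on day 8. Day 8 was wholly above day 7 in both genotypes, by 0.79 in WT (SE 0.18, edgeR adjusted p = 0.0016) and 0.67 in KO (SE 0.18, adjusted p = 0.0063) on the log2 scale. The KO rise was 0.45 with an adjusted p of 0.1 without the 4 KO libraries of doubtful number, which leaves on day 8 number 67, the lowest of the 3. By day 10 the difference from day 7 was not called, at 0.36 in WT (95% interval -0.018 to 0.75) and 0.30 in KO (-0.084 to 0.68). The WT value was called under 4 of 19 alternatives: 0.38 with only the groups compared (adjusted p = 0.0022), 0.37 without number 67 (adjusted p = 0.0099), and 0.64 or 0.65 on the TPM scale (limma, adjusted p = 0.0017 and 0.0015). The KO value was called on the TPM scale, at 0.56 or 0.57 (limma, adjusted p = 0.004 and 0.0038). It was 0.048 without number 67 and 0.14 with number 68 as the lone KO library of day 10, neither called (adjusted p = 0.8 and 0.67).

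Clec12a encodes MICL, an inhibitory receptor for uric acid crystals. It lies 96.3 kb from Clec7a, at 129342691 to 129365303 on the plus strand of chromosome 6, and its 24 libraries ran only from 113.2 to 161.9 CPM. In KO it fell from 152.7, 161.9 and 151 CPM on day 7 to 141.9, 122.5 and 120.3 on day 8 and 113.2, 123.7 and 116.1 on day 10, with no overlap between day 7 and either later day. The log2 change was -0.27 on day 8 (SE 0.084, edgeR adjusted p = 0.012) and -0.40 on day 10 (SE 0.084, adjusted p = 0.00094). Left out, number 67 or 68 moved the day 8 adjusted p to 0.13 or 0.081. A fit of only the groups compared also ended the day 8 call. In WT neither change was called, at -0.095 (95% interval -0.27 to 0.079) and -0.18 (-0.35 to -0.0032, adjusted p = 0.1). The difference between the genotypes in the change to day 10 was -0.22 and was not called (adjusted p = 0.83). On the TPM scale the KO changes were -0.049 and -0.092 and were not called (limma, adjusted p = 0.66 and 0.36), and in WT the sign turned.

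That scale shifted the comparisons with day 7 upwards. With limma on log2(TPM + 1), the median change of all genes from day 7 to day 10 was 0.21 in WT and 0.25 in KO, and from day 7 to day 8 it was 0.17 in both. The share of called genes that were higher was 84.4% in WT and 85.9% in KO for day 10, against 51.1% and 53.6% on the TMM scale. For day 8 it was 74.7% and 75.7%, against 49.4% and 50.3%. On the TMM scale the median over all genes stayed between -0.0153 and 0.00334 in these comparisons, and changes are given relative to it.

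Mrc1 encodes the mannose receptor CD206, an endocytic receptor that delivers glycoproteins to endosomes. The gene lies on the plus strand of chromosome 2, at 14229392 to 14332057. WT libraries held 332.1, 358.3 and 352.7 CPM on day 7, 699.9, 778.9 and 848.8 on day 8, and 528.4, 538.8 and 560.8 on day 10. In KO the values were 464.9, 386.3 and 429.6 CPM on day 7, 788.6, 573.7 and 847.5 on day 8, and 467.3, 770.5 and 570.6 on day 10. Days 8 and 10 lay wholly above day 7 in both genotypes, though in KO by little on day 10 (467.3 against 464.9). The rise to day 8 was 1.16 on the log2 scale in WT (SE 0.16, edgeR adjusted p = 6.9e-06) and 0.79 in KO (SE 0.16, adjusted p = 0.00043). The day 10 difference from day 7 was 0.64 in WT (adjusted p = 0.003) and 0.50 in KO (adjusted p = 0.017, not called with only the groups compared). In KO it was 0.20 without number 67 (adjusted p = 0.15), 0.54 without number 68 (adjusted p = 0.061) and 0.41 with number 68 as the lone KO library of day 10 (adjusted p = 0.052).

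Mgl2 encodes a macrophage galactose-type lectin that binds terminal N-acetylgalactosamine, and it made the largest step from day 7 to day 8. WT libraries held 72.62, 83.1 and 80.44 CPM on day 7, 394.1, 391.1 and 413.1 on day 8, 285.1, 286.9 and 266.6 on day 9, and 228.5, 240.8 and 237.5 on day 10. KO libraries held 75.88, 104 and 73.68 CPM on day 7, 369.1, 578.1 and 270.7 on day 8, 214.7, 470 and 327.3 on day 9, and 387.5, 245.4 and 289.7 on day 10. Each later library exceeded every day 7 library. The rise to day 8 was 2.34 on the log2 scale in WT (SE 0.25, edgeR adjusted p = 3.7e-07) and 2.26 in KO (SE 0.25, adjusted p = 5.5e-07). On day 10 it was still 1.58 in WT (adjusted p = 4.8e-05) and 1.86 in KO (adjusted p = 1.1e-05). These 4 calls were made under all 19 alternative settings.

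Clec10a encodes the other galactose-type lectin of the mouse, MGL1, which prefers galactose and Lewis X sugars. It moved far less, from 28.54, 26.17 and 33.29 CPM on day 7 to 39.48, 33.62 and 42.71 on day 8 in WT, and from 21.39, 28.07 and 22.29 to 30.81, 39.45 and 32.28 in KO. The days did not overlap in either genotype. The log2 change was 0.40 in WT (SE 0.18, edgeR adjusted p = 0.088, not called) and 0.52 in KO (SE 0.18, adjusted p = 0.03). Without number 63 or 68 the KO adjusted p was 0.053 or 0.12. The KO difference between days 10 and 7 was 0.50 (adjusted p = 0.039). It was 0.48 with the mouse number as a replicate block (limma adjusted p = 0.051) and 0.42 with number 68 as the lone KO library of day 10. Left out one at a time, numbers 63, 64, 66 and 68 gave adjusted p-values of 0.067, 0.4, 0.06 and 0.17, and without number 64 the difference was 0.21. Without number 67 it was 0.77 and called (adjusted p = 0.001). With only the groups compared this KO difference was not called. The WT rise to day 8 was called under 7 of 19 alternatives. It was 0.41 without number 64 (adjusted p = 0.022), without number 67 (adjusted p = 0.016) and without the 4 KO libraries (adjusted p = 0.046). It was 0.39 with a replicate block in which the KO numbers were exchanged to follow Ddx3y (limma adjusted p = 0.023), and 0.40 with only the groups compared (edgeR adjusted p = 0.0098). On the TPM scale it was 0.61 or 0.62, depending on the pseudocount (limma, adjusted p = 0.032 and 0.03).

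Mgl2 (70130329 to 70137550) and Clec10a (70156197 to 70170834) are neighbours on the plus strand of chromosome 11, 18.6 kb apart with no protein-coding gene between them. Of the windows of 100 bases in their transcripts, 3.95% of those of Mgl2 and 2.64% of those of Clec10a occur in the other, so few reads could be split between them. In WT there were 2.54, 3.18 and 2.42 Mgl2 counts per Clec10a count on day 7, 9.98, 11.6 and 9.67 on day 8, 7.58, 9.88 and 7.63 on day 9, and 6.54, 7.9 and 7.46 on day 10. In KO the ratio was 3.31 to 3.7 on day 7, 8.38 to 14.7 on day 8, 8.92 to 11.2 on day 9 and 9.01 to 9.34 on day 10. The ratio was 3.86-fold higher on day 8 than on day 7 in WT and 3.24-fold higher in KO, with no overlap. On day 10 it was 1.25-fold higher in KO than in WT and on day 7 1.31-fold higher, also with no overlap. On days 8 and 9 the genotypes overlapped. This ratio was chosen after its values were seen. Over 8 comparisons, the exact two-sided permutation p was 0.1, the smallest that 3 against 3 allows, wherever the ranges did not overlap, and 0.133 after adjustment.

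**Figure D2:**
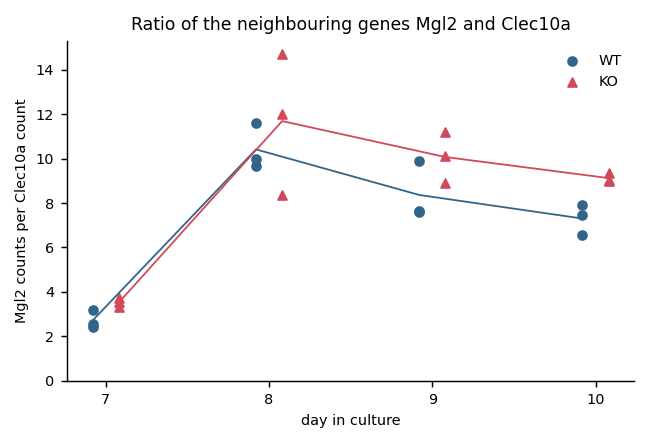
Mgl2 counts per Clec10a count (y axis, linear from 0) against day in culture (x axis), with 1 point per library, circles for WT, triangles for KO and lines through the means. All day 7 points lie at or under 3.7 and all later points at or above 6.54.

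Cd209a encodes a mouse relative of the human adhesion lectin DC-SIGN, from 3743397 to 3748984 on the minus strand of chromosome 8, and had its highest group means on day 10. Its WT values were 0.3613, 0.3745 and 0.2567 CPM on day 7, 1.223, 1.034 and 1.834 on day 8, 2.796, 3.118 and 4.225 on day 9, and 4.022, 5.409 and 8.702 on day 10. The KO values were 0.5189, 1.372 and 0.4715 CPM on day 7, 1.177, 2.715 and 0.7606 on day 8, 1.575, 5.703 and 3.638 on day 9, and 6.442, 3.709 and 5.75 on day 10. WT days 7 and 8 did not overlap, KO days 7 and 8 did, and day 10 lay wholly above day 7 in both. Its counts per library ran from 6 to 247, so the early values rest on few reads. From day 7 to day 10 the log2 change was 4.17 in WT (SE 0.57, edgeR adjusted p = 1.3e-05) and 2.75 in KO (SE 0.50, adjusted p = 0.00026). Without number 67, whose day 7 library was the highest of its group, the KO change was 3.60. The difference between these changes was -1.42 (95% interval -3.05 to 0.20, adjusted p = 0.84) and was not called. It was -0.58 without number 67 and -0.91 without number 66. The WT rise to day 8 was 2.03 (adjusted p = 0.011). It lost the call with the mouse number as a replicate block (1.94, limma adjusted p = 0.07), without number 63 (edgeR adjusted p = 0.051) and without number 66 (edgeR adjusted p = 0.11). The KO rise to day 8 was 1.00 and not called (adjusted p = 0.13). Without the 4 KO libraries of doubtful number it was 1.79 (adjusted p = 0.026), but that rests on number 67 alone on day 8, the highest of its group.

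The promoter windows of Mgl2, Mrc1 and Cd209a are shown because all 3 genes rose from day 7 to day 10 in both genotypes. They are chr11:70130107-70130406 on the plus strand, chr2:14229164-14229463 on the plus strand and chr8:3748935-3749234 on the minus strand (RefSeq, GRCm38.p6), with motif matches in capitals.
Mgl2: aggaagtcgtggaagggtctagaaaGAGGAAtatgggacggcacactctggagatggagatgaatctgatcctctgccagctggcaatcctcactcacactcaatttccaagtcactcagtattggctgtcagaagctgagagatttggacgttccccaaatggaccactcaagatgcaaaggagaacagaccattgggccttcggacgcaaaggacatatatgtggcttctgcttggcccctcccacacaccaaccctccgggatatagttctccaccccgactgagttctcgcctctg
Mrc1: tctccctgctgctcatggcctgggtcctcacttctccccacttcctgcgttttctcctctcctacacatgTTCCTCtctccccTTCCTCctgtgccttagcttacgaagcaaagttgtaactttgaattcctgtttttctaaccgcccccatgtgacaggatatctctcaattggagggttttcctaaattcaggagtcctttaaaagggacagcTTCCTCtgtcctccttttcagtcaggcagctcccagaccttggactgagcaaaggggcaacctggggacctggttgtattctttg
Cd209a: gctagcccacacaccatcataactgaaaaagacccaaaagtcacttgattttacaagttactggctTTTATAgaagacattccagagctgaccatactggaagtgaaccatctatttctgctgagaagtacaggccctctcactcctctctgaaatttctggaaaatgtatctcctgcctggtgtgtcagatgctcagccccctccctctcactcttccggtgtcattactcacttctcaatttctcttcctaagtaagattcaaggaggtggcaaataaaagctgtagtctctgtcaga
The Mgl2 window held 1 PU.1 core at -225, and the Mrc1 window held 3, at -180, -167 and -35. The Cd209a window held a TATA box on the other strand at -184 and no other searched motif. Of the 8 genes with a RefSeq window, 6 held a PU.1 core, 4 a TATA box, 2 AP-1, 2 C/EBP, 1 STAT and 1 the STAT6 spacing. Besides Cd209a, the TATA box letters were at -29 in Clec4e and -161 in Clec4a2. In Clec7a they were at 43 on the other strand, in the first of its windows but not in the other. These counts are per gene, while the shares of all promoters are per window. No window was at hand for Clec4n and Clec10a.

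In the fit of all libraries, few of the 10 genes changed by a called amount from one day to the next after day 8. From day 8 to day 9, Clec4e and Clec4n fell in WT (5.4% of all genes were called) and Clec4e fell in KO (2.33%). Without number 67, 6 were called in WT, against 11.4% of all genes: Clec4d, Mgl2 and Mrc1 were also lower and Cd209a higher. Only the groups compared gave the same 6, against 14.6%. Without number 63, 65 or 66 the WT count was 0, against 0.117% to 0.31%. DESeq2 called 2 of the 10 in KO for that step, against 5.74% of all genes. The WT fall of Clec4n was -0.47 (SE 0.12, edgeR adjusted p = 0.027), and without number 63, 65 or 66 its adjusted p was 0.18 to 0.25. From day 9 to day 10 none of the 10 was called, against 3.6% of all genes in WT and 0.0963% in KO. At an unadjusted p under 0.05 the counts for that step were 2 in WT and 1 in KO, against 17.7% and 12% of all genes. DESeq2 also called 0 in both, against 5.37% and 1.33% of all genes. Leaving out number 67 on all days gave 7 calls in KO, 6 of them lower, and 2 in WT, against 14.4% and 7.3% of all genes.

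**Figure D3:**
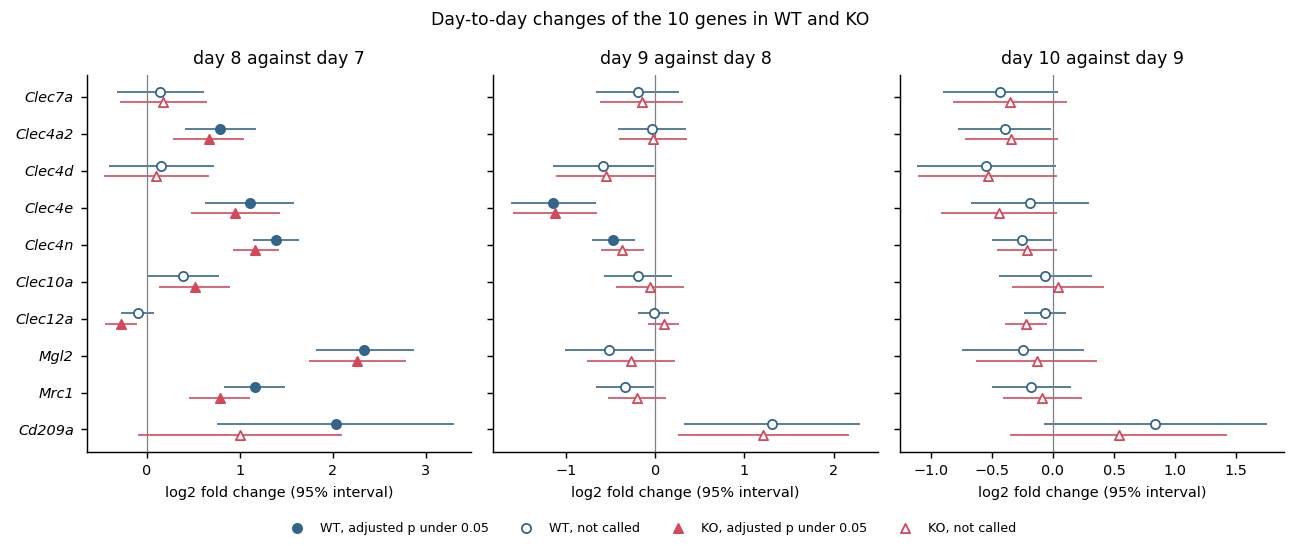
Log2 fold change (x axis) of each gene (rows) for 3 successive day steps (panels), with 95% intervals as bars, circles for WT and triangles for KO. Filled symbols are called by edgeR at an adjusted p under 0.05. Most filled symbols are in the first panel, and in the second panel the filled symbols are Clec4e and the WT symbol of Clec4n.

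Over the whole span from day 7 to day 10, WT had 4 genes higher (Cd209a, Mgl2, Clec4n and Mrc1) and 1 lower (Clec4d). Of all genes tested, 37% were called, 18.9% higher and 18.1% lower. KO had 5 higher (the same 4 and Clec10a) and 3 lower (Clec4d, Clec4e and Clec12a), against 36.8% of all genes, 19.7% higher and 17.1% lower. The median of the 10 genes was 0.26 in WT and 0.40 in KO on the log2 scale. The KO fall of Clec4e, -0.61 (SE 0.23, edgeR adjusted p = 0.041), was the least secure. It was -0.070 without number 67 (adjusted p = 0.81), and without number 63, 65, 66 or 68 the adjusted p was 0.059 to 0.1. On the TPM scale (limma) and with only the groups compared it was not called either. It was -1.09 without number 64 (adjusted p = 0.0027) and -0.75 with number 68 as the lone KO library of day 10 (adjusted p = 0.078). Without number 68 the KO count of calls was 4, against 25.2% of all genes. With that number alone on day 10 it was 5, against 23.6%. A fit of only the groups compared gave 7 in WT, against 38.8% of all genes, and 4 in KO, against 23%.

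Marker sums moved over the same days. In WT the dendritic list rose from 3965 to 4909 TPM on day 7 to 10410 to 12980 on day 10, and the macrophage list fell from 6752 to 7415 to 4593 to 4860. The neutrophil list went from 7292 to 13020 TPM to 19460 to 25640, and the mast cell and basophil list from 140.4 to 182.2 TPM to 131 to 200.8. By day 8 in WT, when 6 of the receptor genes had risen, the macrophage list stood at 6703 to 7209 TPM and the neutrophil list at 9804 to 12360, both overlapping day 7. The monocyte list stood at 2202 to 2845 TPM, against 2169 to 2876 on day 7. The dendritic list stood at 6528 to 7484 TPM on day 8 and the mast cell and basophil list at 222.5 to 318.1, both wholly above day 7. From day 7 to day 8 in WT, 2 of 13 tested dendritic markers rose (Csf2rb and Itgam) and 2 fell (Irf8 and Batf3), and most of the rise in the sum lay in Cd74 (mean 1500 to 2720 TPM) and Csf2rb (818 to 1600 TPM). These 5 genes were named after their values were seen. Of 11 macrophage markers 3 rose and 2 fell, and of 12 neutrophil markers 0 rose and 3 fell. Over the same step, 4 of 9 mast cell and basophil markers rose and 1 fell, and 1 of 8 monocyte markers rose and 3 fell. Of all genes tested 21.5% rose and 22% fell in that step. By day 10 the monocyte list was at 3276 to 5383 TPM, wholly above day 7. To day 10 in WT, 7 of 13 tested dendritic markers rose and 2 fell, and 1 of 11 macrophage markers rose and 7 fell. Of 12 neutrophil markers 5 rose and 1 fell, of 9 mast cell and basophil markers 1 rose and 1 fell, and of 8 monocyte markers 2 rose and 2 fell, beside 18.9% higher and 18.1% lower of all genes. In KO the counts to day 10 were 7 up and 1 down for the dendritic list, 0 and 8 for the macrophage list, and 0 and 2 for the neutrophil list. They were 1 and 3 for the monocyte list and 1 and 2 for the mast cell and basophil list, beside 19.7% and 17.1% of all genes. To day 8 in KO the same 5 lists had 3 up and 2 down, 1 and 3, 0 and 5, 1 and 4, and 1 and 1, beside 21.1% and 20.9%. The KO neutrophil sums were 9737 to 24420 TPM on day 7 and 13650 to 23540 on day 10. The part of these cell types in the receptor changes was not tested.

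None of the 10 genes was called between the genotypes, whichever day was tested. Of all genes tested, 1.45% were called on day 7 and 0.0138% on day 10. The share was 0.00688% on day 8 and again 0.00688% on day 9. At an unadjusted p under 0.05, edgeR gave 1 of the 10 on day 7 (Clec4n) and 0 on the other days, against 15.7%, 5.91%, 8.15% and 7.3% of all genes on days 7 to 10. DESeq2 called 0 on each day, as did each of the 19 alternative settings. The lowest edgeR adjusted p among the 10 was 0.29 on day 7. On the later days it was 0.94, 0.85 and 0.77.

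The intervals say what sizes of difference remained possible. Clec4n on day 7 was 0.26 higher in KO on the log2 scale (95% interval 0.012 to 0.50, edgeR adjusted p = 0.29), with the 3 KO libraries above the 3 WT libraries. Mrc1 was also wholly higher on day 7 (0.30, -0.029 to 0.62), Cd209a likewise (1.23, -0.13 to 2.6), and Clec7a was wholly lower (-0.23, -0.70 to 0.24). The Cd209a difference was 0.60 without number 67, whose KO library held 1.372 CPM, and 0.56 on the TPM scale with a pseudocount of 1. These 4 of 10 genes without overlap stand beside 26.2% of all genes tested. On day 10 only Mgl2 had no overlap, with KO at 245.4 to 387.5 CPM and WT at 228.5 to 240.8 (0.38, -0.11 to 0.88, adjusted p = 0.77), beside 10.4% of all genes. Without number 64 that difference was 0.20. The narrowest intervals were those of Clec12a, -0.25 to 0.096 on day 10 for example, and the widest those of Cd209a. The genotype difference of the change from day 7 to day 8 or to day 10 was not called for any of the 10 genes (0 at an unadjusted p under 0.05), against 0.0275% and 0.0619% of all genes called and 4.71% and 6.31% at that unadjusted p.

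**Figure D4:**
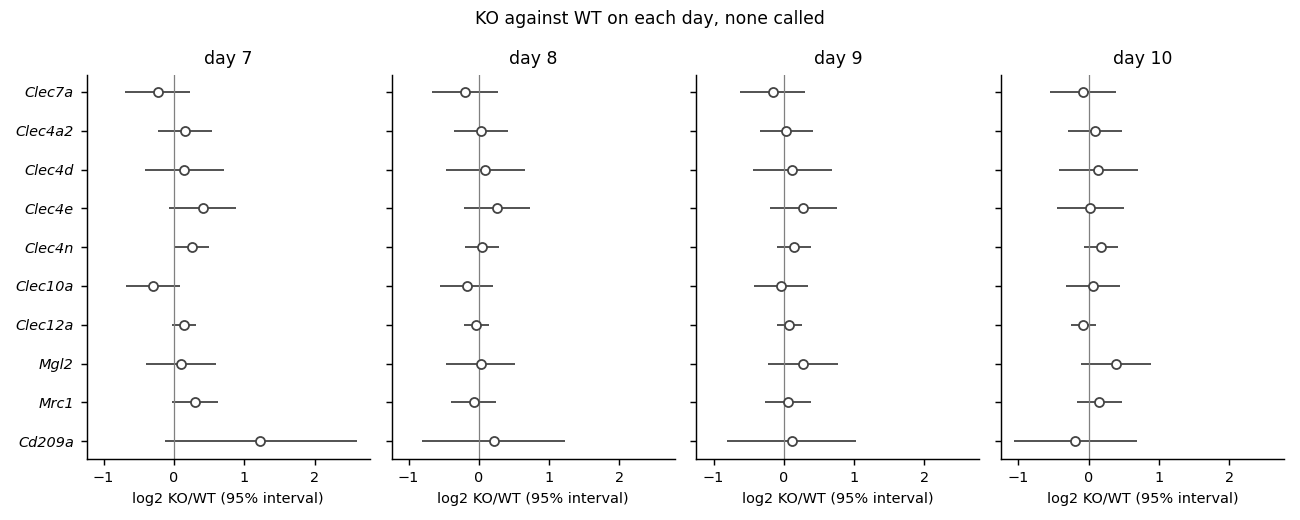
Log2 ratio of KO to WT (x axis) of each gene (rows) on the 4 days (panels), with 95% intervals as bars and open circles for values not called by edgeR. Every interval but that of Clec4n on day 7 crosses 0, and the interval of Cd209a on day 7 reaches 2.6.

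Within groups, most of the 10 genes varied more between KO mice than between WT mice. The pooled SD of log2 CPM within groups was 0.065 in WT and 0.45 in KO for Mgl2, a ratio of 6.89. The ratio was 2.89 for Clec4d, 2.72 for Mrc1, 2.41 for Clec4a2, 1.97 for Cd209a, 1.93 for Clec4e, 1.84 for Clec10a, 1.75 for Clec4n, 1.48 for Clec7a and 0.938 for Clec12a. It exceeded 1 for 9 of the 10 genes and for 68.6% of all genes tested, with medians of 1.95 and 1.25. A ratio at least as large as that of Mgl2 was found in 0.0826% of the 14535 genes, and one as large as that of Clec4d in 4.84%. These are descriptions over 4 groups of 3 mice per genotype. The fit of all libraries does not separate these spreads: the SE of the Mgl2 rise to day 8 was 0.25 in both genotypes.

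The KO libraries fell into an ordered pattern on each day. The library with the most Mgl2 was number 67 on days 7, 8 and 9 (104, 578.1 and 470 CPM) and number 64 on day 10 (387.5 CPM). That library also had the most Clec10a and the most Cd209a of its group on all 4 days, and the least Clec7a and the least Mrc1. On day 10, number 64 held 42.97 CPM of Clec10a and 112 of Clec4d, while number 67 held 26.26 and 292.8. The library with Ddx3y reads had the least Mgl2 on days 8, 9 and 10 (270.7, 214.7 and 245.4 CPM) and 75.88 CPM on day 7, when 73.68 was the lowest. In WT the library with Ddx3y reads was within 228.5 to 394.1 CPM of Mgl2 after day 7, close to the other WT libraries, and had the least Clec7a on all 4 days. Sex and mouse cannot be told apart: 1 library of each group had Ddx3y reads, and in KO these libraries carry 3 different numbers. Exchanging the KO numbers to follow Ddx3y swaps 64 with 68 on day 8 and 64 with 67 on day 10. By those numbers the library with the most Mgl2 was number 67 on all 4 days. Whether the KO pattern is that of 1 mouse sampled on 4 days was not tested.

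Among the 12 KO libraries, deviations from the group means correlated at 0.958 between Mgl2 and Cd209a, 0.894 between Mgl2 and Clec10a, 0.935 between Clec7a and Clec4a2, 0.938 between Clec4d and Mrc1, and 0.917 between Clec7a and Clec4d. Between the sets the sign was negative: -0.891 for Mgl2 and Mrc1, and -0.92 for Clec7a and Clec10a. In the 12 WT libraries the value for Mgl2 and Mrc1 was 0.186 and that for Mgl2 and Cd209a was 0.0833. Clec7a and Clec10a stood at -0.686 and Clec7a and Clec4d at 0.688 in WT. Mgl2 and Mrc1, which rose together over the days (0.74 over all 24 libraries), thus lay on opposite sides of the KO pattern. These correlations are descriptions: the libraries share mice, days, scaling and the group means. By the numbers exchanged to follow Ddx3y, number 67 had the most Mgl2 in every KO group. Its weight in the KO correlations was not tested.

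**Figure D5:**
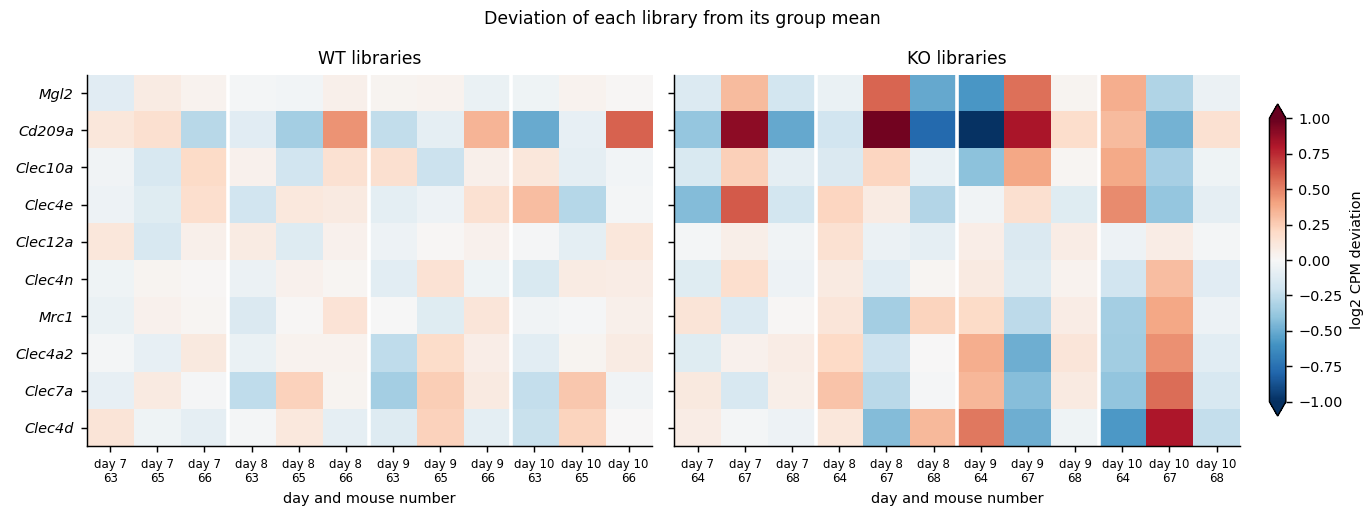
Deviation of log2 CPM from the group mean (colour, limited to 1 either way) for each gene (rows) in each WT library (left) and KO library (right), by day and mouse number. In KO, Mgl2, Cd209a and Clec10a share a colour in number 67 on days 7 to 9 and in number 64 on day 10, where Clec7a and Mrc1 have the opposite colour.

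Marker lists moved with that KO pattern, as sums over each list. The library with the most Mgl2 had the largest dendritic sum of its group on each day, 5908, 10390, 14220 and 17070 TPM on days 7 to 10, and the smallest macrophage sum, 6483, 5538, 5177 and 4568 TPM. It also had the largest mast cell and basophil sum, 544.7, 567.3, 512.9 and 237.6 TPM. Its plasmacytoid sum was the largest too (9.82, 12.2, 8.36 and 11.32 TPM), but its lymphoid sum only on days 9 and 10 (5.93 and 12.84 TPM). Its neutrophil sum was the largest on days 7 to 9 (24420, 17260 and 18590 TPM) but not on day 10 (21800 against 23540 TPM in number 68). Its monocyte sum was likewise the largest on days 7 to 9 (4991, 3820 and 3716 TPM) but not on day 10 (4059 against 4374 TPM in number 68). The dendritic sums of the other KO libraries were 4805 to 5433, 6157 to 7663, 7256 to 9719 and 9264 to 12890 TPM. Their part in the spread of the receptor genes was not tested.

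Of 33 genes listed for signalling by C-type lectin receptors in general, all tested, 11 rose and 4 fell from day 7 to day 8 in WT. Of all genes 43.4% were called in that step. They are adaptors, kinases, phosphatases and effectors. From day 7 to day 10 in WT 8 rose and 8 fell, with a median log2 change of 5e-04, against 37% of all genes called. In KO 6 rose and 10 fell to day 10, against 36.8%. Without number 66 the WT counts were 5 and 4 (22.5% of all genes called), and without number 68 the KO counts were 2 and 5 (25.2%). The largest rises to day 10 in WT were those of Nfatc2, a calcium-regulated transcription factor (1.36, SE 0.15, edgeR adjusted p = 1.3e-06), Card9 (0.66, adjusted p = 0.0017) and the kinase Src (0.64, adjusted p = 0.0039). The largest falls were those of the adaptor Tyrobp (-0.71, adjusted p = 0.00099), Syk (-0.58, adjusted p = 6.8e-05) and the exchange factor Vav3 (-0.48, adjusted p = 0.00046). Card9 and Syk moved likewise in KO, by 0.68 and -0.58. On the TPM scale 16 rose and 2 fell in WT to day 10 and 17 rose and 2 fell in KO. Of all genes 39.9% rose and 7.37% fell on that scale in WT, and 44.3% and 7.29% in KO. Between KO and WT edgeR called 0 of the 33 on each day, with 12, 6, 9 and 3 at an unadjusted p under 0.05 on days 7 to 10, where 15.7%, 5.91%, 8.15% and 7.3% of all genes were. DESeq2 called 5 on day 7, all higher in KO, against 3.52% of all genes called and 2.28% called higher.

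Of 43 other C-type lectin genes listed, 27 were tested. To day 10, 8 rose and 4 fell in WT, where 37% of all genes were called, and 6 rose and 8 fell in KO, where 36.8% were. Without number 66 the WT counts were 7 and 2 (22.5% of all genes called), and without number 68 the KO counts were 3 and 4 (25.2%). On the TPM scale 10 rose and 2 fell in WT and 10 rose and 4 fell in KO, against 39.9% higher and 7.37% lower of all genes in WT and 44.3% and 7.29% in KO. In WT the largest rises were those of Cd209c, a relative of Cd209a (6.30, SE 0.71, edgeR adjusted p = 1.7e-06), the asialoglycoprotein receptor subunit Asgr2 (4.08, adjusted p = 0.00084) and Clec4a4, a paralogue of Clec4a2 (3.15, adjusted p = 0.00091). The largest falls were those of Colec12 (-1.41), Cd72 (-1.11) and Cd93 (-0.42), with adjusted p-values of 0.00021, 0.0016 and 0.004. Of the 27, 3 were called between KO and WT, all on day 7, when 1.45% of all genes were: Clec4a1 was 0.77 higher (adjusted p = 0.019), Clec4a3 was 0.49 higher (adjusted p = 0.037) and the oxidised lipoprotein receptor Olr1 was 0.75 lower in KO (log2 difference -0.75, adjusted p = 0.029). Mean TPM on day 7 was 64.6 in KO and 36.2 in WT for Clec4a1. Without number 63, 65, 66 or 68 on all days none of these was called. The shares of all genes called were then 0.289%, 0.144%, 0.0757% and 0.949%. Without number 67 the count was 0 higher and 1 lower, against 0.667% of all genes.

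Mrc1, Mgl2 and Clec10a are known as interleukin-4 target genes of macrophages, so 19 other genes of alternative activation were counted. To day 10, 10 rose and 3 fell in WT (median 0.90) and 10 rose and 2 fell in KO (median 0.58). Of all genes tested 18.9% rose and 18.1% fell in WT, and 19.7% rose and 17.1% fell in KO. The chemokine Ccl17 led in WT (6.35, SE 0.50, edgeR adjusted p = 3e-08), followed by the cytokine signalling inhibitor Cish (3.16, adjusted p = 6.5e-11) and the adhesion molecule Cdh1 (2.83, adjusted p = 6.1e-05). The transglutaminase Tgm2 (-2.42, adjusted p = 1.2e-08), Batf3 (-0.90, adjusted p = 0.00053) and Egr2 (-0.78, adjusted p = 0.0043) fell. In KO, Ccl17 rose by 4.93 and Cish by 3.33, and Egr2 was at -0.0022 and not called. The genotype difference of the change from day 7 to day 10 was called for 0 of the 19, against 0.0619% of all genes. At an unadjusted edgeR p under 0.05 that difference gave 4 of the 19, against 6.31% of all genes. Between KO and WT edgeR called 0 of the 19 on each day, with 6, 3, 2 and 3 at an unadjusted p under 0.05 (15.7%, 5.91%, 8.15% and 7.3% of all genes), and DESeq2 called 1 on day 7 (3.52% of all genes).

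The genes whose log2 CPM most resembled each receptor over the 24 libraries were taken from 10479 candidates. Clec4n was closest to Gas7 (r = 0.979) and to the kinase Btk (0.976). Mgl2 was closest to Hs3st3b1 (0.978) and Tes (0.974), and Cd209a to H2-DMb2 (0.977), a chaperone of peptide loading on class II molecules, and Mycl (0.975). Clec4d resembled Hgsnat (0.961) and Card19 (0.944), Mrc1 resembled Slc31a2 (0.95) and Plxdc2 (0.943), and Clec4a2 resembled Ccl9 (0.945) and Cd44 (0.935). Clec7a was closest to Papss2 (0.934) and Slamf8 (0.931). Clec4e was closest to Nfkbia (0.932) and Acod1 (0.915), both known to be induced in inflammatory activation. Clec10a and Clec12a had no such close match, at 0.83 for Lsm8 and 0.788 for Saa3. These values describe shared day patterns in libraries that share mice and scaling.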

How the data were processed

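Per the labels, stranded poly(A) paired-end libraries were made with kits of 2 kinds, with no map of kits to libraries. The submitters' processing notes name FastQC 0.11.9, STAR 2.6.1, DESeq2 1.22.2 and the build mm10 without roles, and strand setting and annotation are not given in the sources used here. The authors deposited whole-number counts per gene, TPM per gene and a table of symbols. TPM values deposited by the authors were used for levels between genes and marker sums. Counts were fitted with edgeR 4.0.16 (R 4.3.3): filterByExpr over the 8 groups, TMM, quasi-likelihood test with 1 coefficient per group (16 residual degrees of freedom), Benjamini-Hochberg adjustment over all genes tested, threshold 0.05. Log2 CPM used a prior count of 2, and 95% intervals came from the fold change and its standard error. Positions are GENCODE M21, where all 10 identifiers had the same version, and promoters are RefSeq. The test recovered changes in simulated counts. Those counts had the same spread in all groups and no mouse shared between days. The simulation therefore cannot say how the test behaves with repeated mice or a wider spread in KO. Alternatives were DESeq2 1.42.0, limma 3.58.1 on TPM, other filters and scalings, the replicate block (limma on counts with voom weights), each mouse number left out, and, added after seeing the data, 4 KO libraries left out.

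All 10 genes are named. From the signalling, other lectin and activation lists, at most 3 called genes per direction are named for day 10 against day 7 in WT and for KO against WT, and for each receptor the genes of highest correlation (average log2 CPM above 1, no predicted genes). The genes and lists were chosen with earlier results of these data known. Mouse numbers pair libraries by label, and the labels give each mouse 1 library per day. Deviations from group means over 11108 genes correlated above 0.1 in 18 of 18 same-number pairs in WT (mean 0.492) and in 7 of 18 in KO (mean -0.0047, -0.796 to 0.799). For number 67 the values were 0.664 to 0.799 among days 7 to 9. Between those days and day 10 they were -0.796 to -0.657.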

Additional observations from a re-analysis of the deposited data

How the results depend on the processing

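Over 19 alternatives, 2660 values of the 10 genes were recomputed: 64 lost a call, 42 gained one, none that was called changed direction, and 98 values called in neither fit changed sign. Of 29 calls, 10 were made under every alternative and 16 under every one but a fold minimum. A minimum log2 change of 1 left 2 calls from day 7 to day 10 in WT (12% of all genes) and 2 in KO (11.2%). It left 2 from day 7 to day 8 in KO (10.6%) and 1 from day 8 to day 9 in WT (1.5%). Fitting only the groups compared gave 4 for day 7 to 10 in KO (23% of all genes), 7 in WT (38.8%), 6 for day 8 to 9 in WT (14.6%), 2 for day 9 to 10 in WT (5.33%) and 0 for day 8 to 9 in KO (0 of all genes). Without the 4 KO libraries of doubtful number, which leaves 1 KO library on day 8 and 1 on day 10, the KO counts were 5 for day 7 to 10 (23.6% of all genes) and 0 for day 8 to 9 (0.358%). DESeq2 gave 2 for day 8 to 9 in KO (5.74%).

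With 1 mouse number left out on all days (in KO this need not be 1 mouse), counts stand beside shares of all genes. For day 7 to 10 they were 4 to 7 in WT (22.5% to 40.6%) and 4 to 7 in KO (22% to 39.8%). For day 7 to 8 they were 5 to 7 in WT (30.2% to 47.9%) and 5 to 7 in KO (32.1% to 39.6%). For day 8 to 9 they were 0 to 6 in WT (0.117% to 11.4%) and 0 to 1 in KO (0.144% to 3.8%). For day 9 to 10 they were 0 to 2 in WT (0% to 7.3%) and 0 to 7 in KO (0% to 14.4%). The log2 Mgl2 to Clec10a ratio of KO over WT on day 8 was 0.13, and with 1 number left out -0.0528 (without number 67) to 0.35.

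The replicate block had a consensus correlation of 0.00464, or 0.23 with the KO numbers exchanged to follow Ddx3y. The exchanged block gave 2 calls for day 8 to 9 in KO (8.91% of all genes). In WT it gave 6 for day 7 to 10 (44%, with Clec7a) and 7 for day 7 to 8 (49%, with Clec10a). It gave 3 for day 8 to 9 in WT (11.7%, with Cd209a, 1.33, limma adjusted p = 0.043). The plain block ended the calls of Cd209a (day 7 to 8 in WT) and Clec10a (day 7 to 10 in KO) and no other. On the TPM scale 2 rather than 8 signalling genes fell to day 10 in WT, where 7.37% rather than 18.1% of all genes fell. With a minimum log2 change of 1 the count was 0, where 12% of all genes were called in either direction. A group of 3 mice limits what could be seen, and a count as low as 6 limits Cd209a on day 7.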
